A study of Homo sapiens with 16 samples.

Results

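The 40 genes described here code for RNA polymerase I and its factors and for the proteins that process ribosomal RNA and assemble the ribosomal subunits. They are a named list of such factors, and each gene was followed on the brightest probe set (the group of array probes summarised as 1 value) that carries its symbol and no other. Such a probe set was found for 35 of the 40, out of 22395 genes in the whole table. NOP56, DKC1 and TAF1D share all their probe sets with small nucleolar RNAs of their introns or with a microRNA, and GNL3 and EBNA1BP2 had no probe set under their own symbol, so these 5 were not tested. All 35 lay among the brighter 70% of genes that were tested (15676 genes).

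The arrays held total RNA from DLD1 and HCT116, established human colorectal carcinoma lines. Each line came in 2 isogenic forms, which retain different alleles of PIK3CA, the gene for the catalytic p110-alpha subunit of phosphoinositide 3-kinase. Mut cells retain the mutant allele after knockout of the wild-type one, and WT cells retain the wild-type allele after knockout of the mutant one. Each form is called a derivative here. All cells were kept in DMEM with 10% dialyzed fetal bovine serum, either without glutamine or with it, for 24 h. This gives 8 groups of 2 arrays labelled as biological replicates. Each genotype of a line is 1 derivative, the number of clones behind it is not given in the sources used here, and a difference between Mut and WT cannot be told apart from a difference between 2 derived cultures. P-values rest on each gene's spread between arrays of the same group, pooled over the 8 groups and drawn towards the spread of all tested genes.

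Ribosomes are built in the nucleolus, where RNA polymerase I transcribes a long precursor of ribosomal RNA. Box C/D and box H/ACA small nucleolar ribonucleoproteins (snoRNPs) modify this precursor, a large assembly called the small subunit processome folds and cuts the part that becomes the 40S subunit, and a separate set of factors assembles the 60S subunit. The genes of this pathway are among the best-known growth genes: growth factor signalling through phosphoinositide 3-kinase and mTOR, and the transcription factor MYC, are known to raise their transcription, and shortage of amino acids is known to lower ribosome production in many cell types.

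The 16 arrays had similar distributions, with median intensities from 3.57 to 3.70, and arrays of a group correlated at 0.989 to 0.992. Of 8 epithelial markers (EPCAM, CDH1, KRT8, KRT18, KRT19, CLDN4, CLDN7 and ELF3), 8 passed the filter on dim genes, with array medians of log2 intensity from 7.56 to 8.66. Of the fibroblast and leukocyte markers with a probe set 1 of 5 passed in each list, and of the endothelial markers 0 of 4, with array medians no higher than 1.59. The highest single log2 intensity was 7.78 among the leukocyte, 3.81 among the fibroblast and 2.02 among the endothelial markers. Levels below are deposited intensities, which are not comparable between genes. Changes are differences of mean log2 intensity with the SE of the fit, and a gene is called where its Benjamini-Hochberg adjusted p over all tested genes, from limma, is under 0.05. A lower level in every cell and fewer cells that hold the transcript cannot be told apart in RNA from a whole culture.

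RefSeq promoter windows (GRCh38.p14, 250 bases before to 50 bases after the start of the gene) were matched by symbol to 29 of the 35 genes. They were searched on both strands for CACGTG, the sequence that MYC and other E-box proteins bind, which reads the same on both strands, and for CCGGAAGT, a sequence bound by ETS family factors. The 2 motifs cannot overlap by their letters. CACGTG was present in 14 of the 29 genes (48.3%), against 34.6% of 78 other ribosome biogenesis genes, 11.9% of 11735 tested genes with a window and 8.77% of all 27305 genes of the promoter table. CCGGAAGT was present in 9 of the 29 genes (31.0%), against 24.4% of the other ribosome biogenesis genes, 8.39% of the tested genes and 4.95% of the whole table. A match is a stretch of letters and does not show that a factor is bound. Shown here, on the strand of the gene and with CACGTG in capitals, are the windows of the 3 genes with this motif that fell most on glutamine withdrawal. It begins at base -10 of UTP20 and base -5 of RRP9, just before the start of transcription, and at base 28 inside MYBBP1A.
MYBBP1A (chr17:4555335-4555634, minus strand): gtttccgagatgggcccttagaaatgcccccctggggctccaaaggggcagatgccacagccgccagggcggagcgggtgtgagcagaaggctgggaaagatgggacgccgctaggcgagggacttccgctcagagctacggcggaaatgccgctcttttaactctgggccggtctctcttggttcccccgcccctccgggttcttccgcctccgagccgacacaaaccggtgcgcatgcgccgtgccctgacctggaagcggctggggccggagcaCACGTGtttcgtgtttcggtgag
UTP20 (chr12:101279855-101280154, plus strand): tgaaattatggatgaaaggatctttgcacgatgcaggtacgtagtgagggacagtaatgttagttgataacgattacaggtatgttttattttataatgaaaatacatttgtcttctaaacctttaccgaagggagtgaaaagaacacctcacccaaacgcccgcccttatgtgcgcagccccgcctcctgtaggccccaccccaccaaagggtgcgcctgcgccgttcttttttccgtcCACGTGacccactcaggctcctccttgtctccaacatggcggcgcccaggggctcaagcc
RRP9 (chr3:51941855-51942154, minus strand): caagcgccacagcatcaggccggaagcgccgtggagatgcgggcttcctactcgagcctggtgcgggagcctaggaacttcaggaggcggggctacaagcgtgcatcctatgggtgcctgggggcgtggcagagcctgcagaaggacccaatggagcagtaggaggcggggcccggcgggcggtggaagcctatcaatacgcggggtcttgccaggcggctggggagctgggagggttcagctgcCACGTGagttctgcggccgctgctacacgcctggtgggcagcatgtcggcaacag
On average withdrawal, as described below, 10 of 14 genes with CACGTG and 12 of 15 without it were called lower, with median log2 changes of -0.40 and -0.36, and no test was made of this split.

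Averaged over the derivatives, glutamine withdrawal lowered most of these genes, and in single derivatives it lowered between 17 and 21 of them. On this average 26 of the 35 genes fell and 1, RRN3, rose, against 23.5% and 24.3% of all tested genes. Their median log2 change was -0.39, against -0.00 for all tested genes, and 32 of the 35 changes lay below 0. The largest average falls were those of BOP1 (2.23-fold), TBL3 (1.97-fold) and MYBBP1A (1.97-fold), and the remaining called falls ranged down to 1.10-fold for UBTF. Of the 27 calls 26 held whichever array was left out. UBTF lost its call with any of 8 arrays left out (adjusted p at most 0.0658 by limma).

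Within the derivatives the counts were alike in direction. In DLD1 Mut cells 17 genes fell and 2 rose (background 16.8% and 16.8% of tested genes), with a median log2 change of -0.26. In DLD1 WT cells 19 fell and 0 rose (13.0% and 14.0%), with a median of -0.43. In HCT116 Mut cells 20 fell and 2 rose (16.5% and 16.4%), with a median of -0.41. In HCT116 WT cells 21 fell and 0 rose (10.1% and 10.3%), with a median of -0.38. The median over all tested genes lay between -0.03 and 0.01 in the 4 comparisons. Calls that held whichever array was left out numbered 12 of 19 in DLD1 Mut, 13 of 19 in DLD1 WT, 14 of 22 in HCT116 Mut and 7 of 21 in HCT116 WT cells. The HCT116 WT count depended most on single arrays: it was 10 without replicate 1 of the cells without glutamine or without replicate 2 of those with it, 11 without replicate 1 of those with it, and 13 without replicate 2 of those without it. With each line fitted separately it was also 13.

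**Figure D1:**
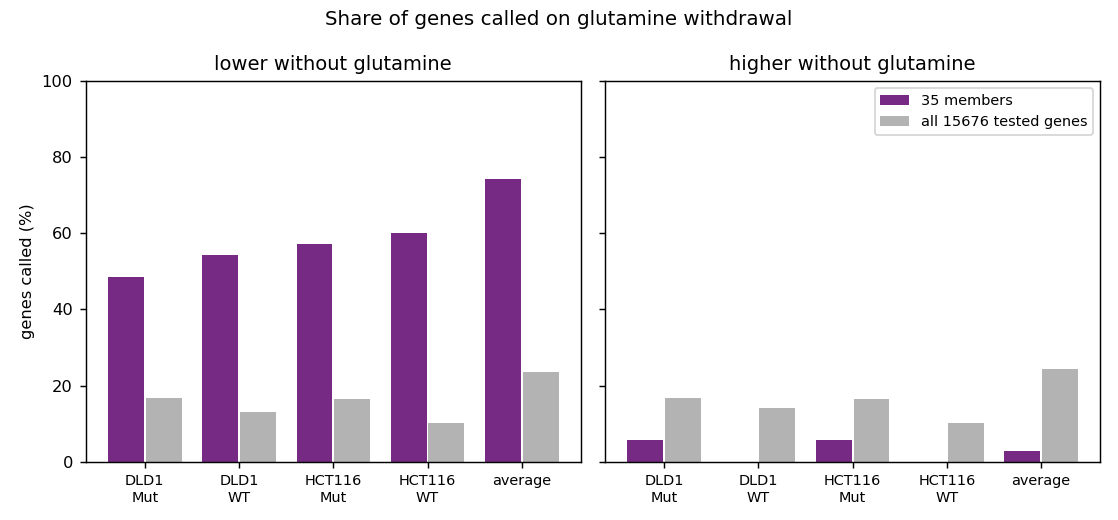
Share of genes (percent, vertical axis) called lower (left) or higher (right) without than with glutamine in each derivative and on average, for the 35 ribosome biogenesis and RNA polymerase I genes (purple) and all 15676 tested genes (grey). The purple bars for lower genes stand above the grey ones in all 5 comparisons, at 48.6% to 74.3% against 10.1% to 23.5%.

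Among the RNA polymerase I genes, 3 polymerase subunits fell on average on the probe sets used and the initiation factor RRN3 went the other way. POLR1B, the second-largest subunit, averaged a log2 change of -0.45 ± 0.05 (SE, adjusted p = 2.33e-05 by limma). Its intensities in HCT116 Mut cells were 64.5 and 58.1 without glutamine, against 96.3 and 104 with it, and in DLD1 WT cells 61.2 and 57.6 without glutamine, against 88.8 and 86.5 with it. The groups were well apart in both. In DLD1 Mut cells POLR1B had 75.1 and 77.9 without glutamine, against 78.7 and 78.6 with it, a log2 change of -0.04 ± 0.10 that did not pass the test. POLR1C, a subunit that RNA polymerases I and III share, changed by -0.27 ± 0.05 on average (adjusted p = 0.000684, limma), with per-derivative log2 changes from -0.31 to -0.22. The largest subunit, POLR1A, changed by -0.18 ± 0.06 (adjusted p = 0.0186, limma), and of the 4 derivatives its fall was called in DLD1 WT cells (-0.45 ± 0.11), a call lost with either of 2 arrays left out (adjusted p at most 0.0904, limma). A second, dimmer probe set of POLR1A disagreed: in HCT116 Mut cells its log2 intensities were 7.42 and 7.30 without glutamine, against 6.36 and 6.34 with it, where the probe set used had a log2 change of 0.01 ± 0.11. In DLD1 WT, DLD1 Mut and HCT116 WT cells this second probe set differed by 0.09, 0.15 and -0.15, so the fall of POLR1A is uncertain. UBTF, which keeps ribosomal DNA open for transcription, had called changes in none of the 4 derivatives taken singly.

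RRN3 (TIF-IA), the factor that makes polymerase I competent to initiate, was the one gene of the list to rise on average, by 0.31 ± 0.05 on the log2 scale (adjusted p = 0.00039, limma). In DLD1 Mut cells its intensities were 235 and 239 without glutamine, against 153 and 161 with it (log2 change 0.60 ± 0.10). In HCT116 Mut cells they were 547 and 467 without glutamine, against 351 and 396 with it (0.44 ± 0.10). The 2 groups did not overlap in either Mut derivative. DLD1 WT cells had 184 and 173 without glutamine, against 164 and 155 with it, and HCT116 WT cells 378 and 373, against 365 and 368, differences of 0.17 ± 0.10 and 0.04 ± 0.10 that did not pass the test. The HCT116 Mut rise lost its call without replicate 1 of the cells without glutamine (adjusted p = 0.0588, limma) or replicate 1 of those with it (0.0543). The human genome holds near-identical copies of parts of RRN3, so its values are uncertain.

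Of the box C/D snoRNP proteins, which carry out 2'-O-methylation of ribosomal RNA, FBL and RRP9 fell on average. FBL (fibrillarin), the methyltransferase, had 589 and 690 in DLD1 Mut cells without glutamine, against 1045 and 1140 with it, and its falls of -0.78, -0.58, -0.41 and -0.33 in DLD1 Mut, DLD1 WT, HCT116 Mut and HCT116 WT cells were all called. The last of these was lost with any of 10 arrays left out (adjusted p at most 0.184, limma). RRP9, a protein of the U3 snoRNP that guides cleavage for the small subunit, had 63.7 and 59.2 in HCT116 Mut cells without glutamine, against 115 and 152 with it, a log2 change of -1.11 ± 0.17. Its average change was -0.77 ± 0.09 (adjusted p = 2.94e-05, limma). NOP58, a core protein of these particles, averaged -0.10 ± 0.04, which did not pass the test, although its fall in HCT116 WT cells was called (-0.41 ± 0.08) and lost with 1 array left out (adjusted p = 0.0501, limma).

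The box H/ACA proteins, which belong to the particles that make pseudouridine, did not move together. NHP2 fell by 0.84 ± 0.08 on the log2 scale on average (adjusted p = 1.01e-05, limma). Its intensities were 138 and 107 in DLD1 Mut cells without glutamine, against 274 and 236 with it, and 186 and 188 in HCT116 Mut cells without glutamine, against 377 and 354 with it. In HCT116 WT cells NHP2 had 251 and 243 without glutamine, against 324 and 334 with it, which missed the threshold (-0.41 ± 0.17, adjusted p = 0.11 by limma). GAR1 and NOP10, core partners of NHP2, had average changes of -0.11 ± 0.06 and 0.02 ± 0.06, neither of which passed the test.

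Of the 10 genes of the small subunit processome and 40S maturation 8 fell on average, and the median log2 change of the group was -0.40. TBL3 (UTP13), a WD-repeat protein of the UTP-B complex, had 75.7 and 80.1 in HCT116 Mut cells without glutamine, against 189 and 217 with it (log2 change -1.38 ± 0.10, adjusted p = 4.42e-06 by limma). In the other 3 derivatives TBL3 changed by -0.86 to -0.83, and all 16 arrays kept this order within their derivative. UTP20, a large scaffold that joins late, had 77.1 and 83.4 in HCT116 WT cells without glutamine, against 190 and 183 with it (-1.22 ± 0.12, adjusted p = 5.43e-05 by limma). In DLD1 Mut cells UTP20 had 181 and 159 without glutamine, against 235 and 212 with it, and that smaller fall (-0.40 ± 0.12) lost its call with either of 2 arrays left out (adjusted p at most 0.149, limma). HEATR1 (UTP10) of the UTP-A complex, which also binds ribosomal DNA, fell by 0.56 ± 0.04 on average, with 307 and 306 in DLD1 WT cells without glutamine, against 526 and 543 with it. PWP2 (UTP1), a partner of TBL3 in UTP-B, fell by 0.56 ± 0.07 on average, NOP14 by 0.41 ± 0.05, UTP4 of UTP-A by 0.38 ± 0.04, the helicase DDX10 by 0.36 ± 0.07 and WDR43 (UTP5) by 0.29 ± 0.05.

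BYSL and RRP12, which act later in the maturation and export of the 40S precursor, each had a called rise in 1 derivative. BYSL (bystin) had 286 and 284 in DLD1 Mut cells without glutamine, against 210 and 206 with it, a called rise of 0.45 ± 0.11 (adjusted p = 0.00921, limma). In HCT116 WT cells BYSL had 179 and 148 without glutamine, against 228 and 240 with it, a change of -0.52 ± 0.11 whose call was lost with either of 2 arrays left out (adjusted p at most 0.0653, limma). Its fall in DLD1 WT cells (-0.33 ± 0.11) was called as well and was lost with any of 12 arrays left out. RRP12, an export factor, had 426 and 484 in HCT116 Mut cells without glutamine, against 332 and 305 with it (0.51 ± 0.13, adjusted p = 0.00909, limma), and this call too was lost with either of 2 arrays left out (adjusted p at most 0.0726). The tests of a difference in its response between the lines or genotypes did not pass (smallest adjusted p = 0.0769, limma). The difference DLD1 minus HCT116 (-0.35) and that of Mut minus WT in HCT116 cells (0.55) each gained a call with certain single arrays left out. Average changes of -0.07 ± 0.06 for BYSL and 0.06 ± 0.06 for RRP12 did not pass the test.

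Among the 60S assembly factors 7 of 9 genes fell on average, with a median of -0.42. BOP1 is the scaffold of the PeBoW complex, which it forms with PES1 and WDR12 and which is needed to process the precursor of the large ribosomal RNAs. It had 38.6 and 38.9 in DLD1 Mut cells without glutamine, against 114 and 115 with it. In HCT116 Mut cells BOP1 had 94.4 and 90.7 without glutamine, against 184 and 218 with it. Groups did not overlap in any derivative, and the falls were 2.95-fold in DLD1 Mut, 2.07-fold in DLD1 WT, 2.16-fold in HCT116 Mut and 1.86-fold in HCT116 WT cells (adjusted p at most 0.000334, limma). A second, dimmer probe set of BOP1 was lower without glutamine as well, by 0.47 to 0.79 on the log2 scale. The other PeBoW members moved less: PES1 changed by -0.31 ± 0.07 and WDR12 by -0.33 ± 0.04 on average.

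NOP16 fell by 0.74 ± 0.05 on average, with 50.7 and 57.3 in DLD1 Mut cells without glutamine, against 120 and 108 with it. RRP1B, a partner of nucleolar phosphatases, fell by 0.49 ± 0.05, and RRS1, which helps to load the 5S particle, by 0.45 ± 0.06. NIP7 and WDR74, factors of 60S maturation, averaged -0.01 ± 0.04 and -0.07 ± 0.07 and passed the test in no derivative. NOP2, a cytosine methyltransferase of 28S ribosomal RNA, fell by 0.42 ± 0.05 on average, and its falls were called in the DLD1 derivatives and not in the HCT116 ones, as set out below.

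Of the nucleolar proteins with several roles, MYBBP1A fell most. MYBBP1A binds the polymerase I machinery and precursor ribosomal RNA, and in nucleolar stress it is known to move to the nucleoplasm and act on p53. It had 111 and 107 in DLD1 Mut cells without glutamine, against 255 and 231 with it, and 166 and 144 in HCT116 WT cells without glutamine, against 240 and 226 with it. The lowest fall, in HCT116 WT cells, was -0.59 ± 0.11 and the others lay between -1.16 and -0.99. NCL (nucleolin), which binds nascent ribosomal RNA, fell by 0.42 ± 0.06 on average, and NOLC1, a chaperone of snoRNPs, by 0.39 ± 0.04. NPM1 (nucleophosmin), a scaffold of the nucleolus, changed by -0.69 ± 0.14, but its probe set was dim, with intensities from 7.78 to 28.2, and near-identical copies of the gene make it uncertain. DDX21, an RNA helicase of polymerase I and II transcription, averaged -0.10 ± 0.04, which was not called, and its called fall in HCT116 WT cells (-0.27 ± 0.08) was lost with any of 15 arrays left out.

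The 10 genes BOP1, TBL3, MYBBP1A, UTP20, HEATR1, FBL, RRP1B, RRS1, NOP14 and NOLC1 fell in all 4 derivatives, where 3.67% of all tested genes did so. Another 7 genes fell in 3 derivatives, 6 in 2 and 4 in 1, and 8 fell in 0. None of the 35 rose in all 4, where 3.54% of tested genes did. RRN3 was the 1 gene that rose in 2. The 4 withdrawal comparisons share no array, but they draw on the same estimate of each gene's spread, and are in that sense not independent. With every array left out in turn, BOP1, TBL3 and MYBBP1A kept all 4 calls.

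**Figure D2:**
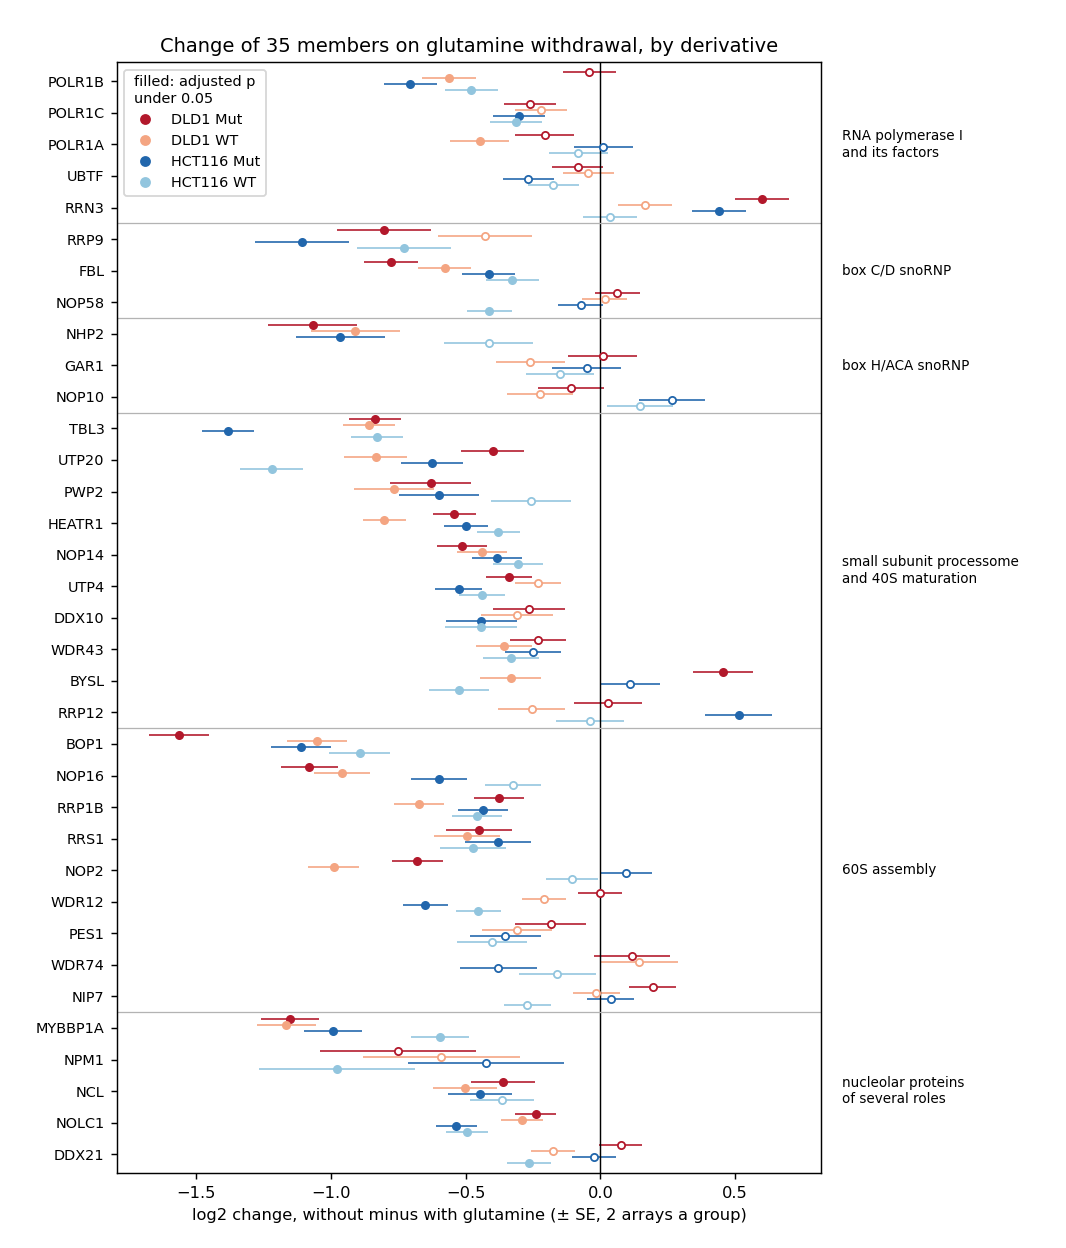
Log2 change without minus with glutamine (horizontal axis, ± SE, 2 arrays a group) of each of the 35 genes in DLD1 Mut (dark red), DLD1 WT (light red), HCT116 Mut (dark blue) and HCT116 WT cells (light blue), grouped by role; filled points are called. Most points lie left of 0, down to -1.56 for BOP1 in DLD1 Mut cells, and the called points right of 0 belong to RRN3, BYSL and RRP12.

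The change on withdrawal differed between the lines for 6 genes, 3 with a higher and 3 with a lower value in DLD1 than in HCT116 cells, against 10.0% and 8.94% of tested genes. These shares are close to the background, but the count was not stable: it was 3 with no filter on dim genes, 12 with genes above the median level, 14 with a trended, robust spread and 16 with 16 added to each intensity. NOP2 had the largest such difference (-0.83 ± 0.10, adjusted p = 0.00035 by limma). Its intensities were 339 and 350 in DLD1 Mut and 275 and 244 in DLD1 WT cells without glutamine, against 557 and 546 in DLD1 Mut and 514 and 514 in DLD1 WT cells with it. In HCT116 Mut cells NOP2 had 524 and 600 without glutamine, against 534 and 516 with it, so that these groups overlapped. WDR12 went the opposite way (difference 0.45 ± 0.08, adjusted p = 0.00436 by limma). It had 158 and 159 in HCT116 Mut cells without glutamine, against 248 and 250 with it, while DLD1 Mut cells had 200 and 215 without glutamine, against 205 and 211 with it. In DLD1 WT cells WDR12 was lower without glutamine too, with a mean log2 intensity of 7.26 against 7.47, which did not pass the test. NOP16 fell more in DLD1 than in HCT116 cells (-0.56 ± 0.10, adjusted p = 0.00446, limma). The differences of MYBBP1A (-0.36 ± 0.11), NOP58 (0.28 ± 0.08) and NOLC1 (0.25 ± 0.08) were each lost with any of 12, 13 and 15 of the 16 arrays left out.

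**Figure D3:**
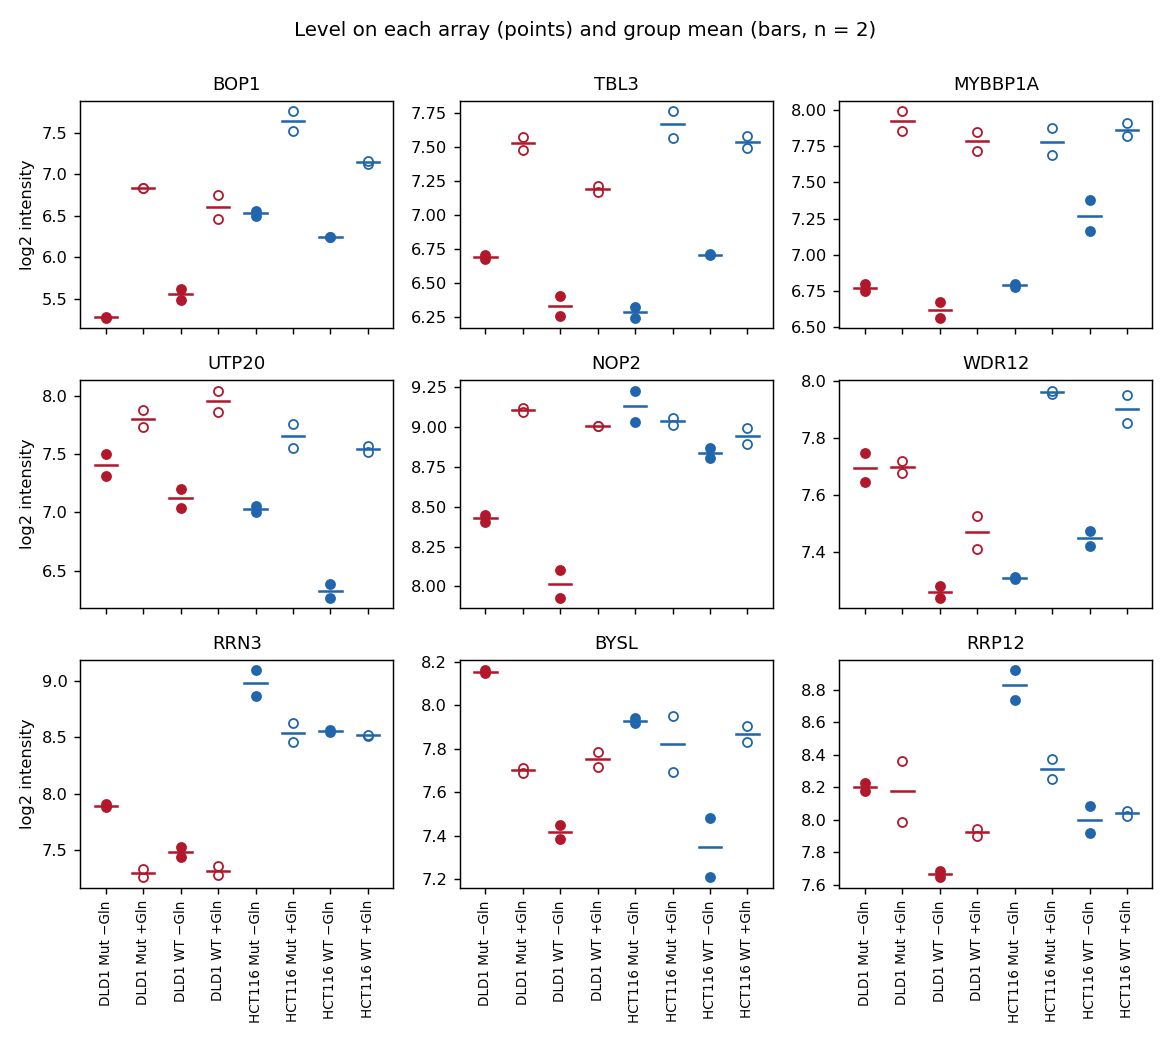
Log2 intensity (vertical axis) of 9 genes on each of the 16 arrays, in DLD1 (red) and HCT116 cells (blue), filled without and open with glutamine; bars are means of 2 arrays. BOP1, TBL3 and MYBBP1A are lower without glutamine in every derivative, and NOP2 mainly in DLD1 cells. WDR12 is lower in both HCT116 derivatives and, by less, in DLD1 WT cells, and RRN3 is higher without glutamine mainly in both Mut derivatives.

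With glutamine present, few of these genes were called between Mut and WT cells, as was true of all tested genes, though most lay higher in Mut cells. In DLD1 cells 0 of 35 were called between Mut and WT, against 5.81% of tested genes, and 4 had an unadjusted p under 0.05. In HCT116 cells 1 gene, BOP1, was higher in Mut cells, and 0 were lower (background 1.12% and 2.12% of tested genes), with 184 and 218 in Mut and 139 and 143 in WT cells (0.50 ± 0.11, adjusted p = 0.0385 by limma). That call was lost with any of 13 arrays left out and with each line fitted separately (adjusted p at most 0.211). Higher in Mut cells, called or not, were 26 of 35 genes in DLD1 and 31 of 35 in HCT116 cells, where 53.4% and 50.6% of tested genes were, with medians of 0.13 and 0.14.

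Without glutamine the called differences between Mut and WT cells were mostly higher in Mut. Called or not, 31 of 35 genes were higher in Mut cells in DLD1 and 26 of 35 in HCT116 cells, with medians of 0.19 and 0.14. With glutamine these counts were 26 and 31, and the medians 0.13 and 0.14. Of tested genes 50.4% and 50.7% were higher in Mut cells without glutamine. In DLD1 cells 8 genes were higher and 0 lower in Mut than in WT cells, against 4.36% and 5.91% of tested genes. BYSL was the one call that held with every array left out: it had 286 and 284 in Mut and 175 and 167 in WT cells (0.74 ± 0.11, adjusted p = 0.00257, limma). The other 7 calls, from 0.36 for TBL3 to 0.54 for RRP12, were each lost with at least 2 of the arrays left out in turn. The count of 8 fell to 1 without replicate 2 of either group and to 3 without replicate 1 of either, and it was 2 with each line fitted separately, 5 with no filter on dim genes and 13 with a trended, robust spread.

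In HCT116 cells without glutamine 10 genes were higher and 2 lower in Mut than in WT cells, against 12.3% and 12.4% of tested genes. RRP12 had 426 and 484 in Mut and 242 and 271 in WT cells (0.83 ± 0.13, adjusted p = 0.00091, limma). UTP20 had 133 and 128 in Mut and 77.1 and 83.4 in WT cells (0.70 ± 0.12), and BYSL 246 and 242 in Mut and 179 and 148 in WT cells (0.58 ± 0.11). The other calls that held with every array left out were NIP7 (0.45 ± 0.09), DDX21 (0.44 ± 0.08) and NOP58 (0.42 ± 0.08). MYBBP1A and TBL3 were lower in Mut cells. MYBBP1A had 110 and 111 in Mut and 166 and 144 in WT cells (-0.48 ± 0.11), a call lost without replicate 1 of the WT cells (adjusted p = 0.0686, limma). TBL3 had 75.7 and 80.1 in Mut and 104 and 105 in WT cells (-0.42 ± 0.10), a call lost without replicate 1 of the Mut cells (adjusted p = 0.0563, limma). In DLD1 cells without glutamine TBL3 had the opposite sign: it had 104 and 102 in Mut and 84.6 and 76.4 in WT cells (0.36 ± 0.10), a call lost with any of 14 arrays left out.

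**Figure D4:**
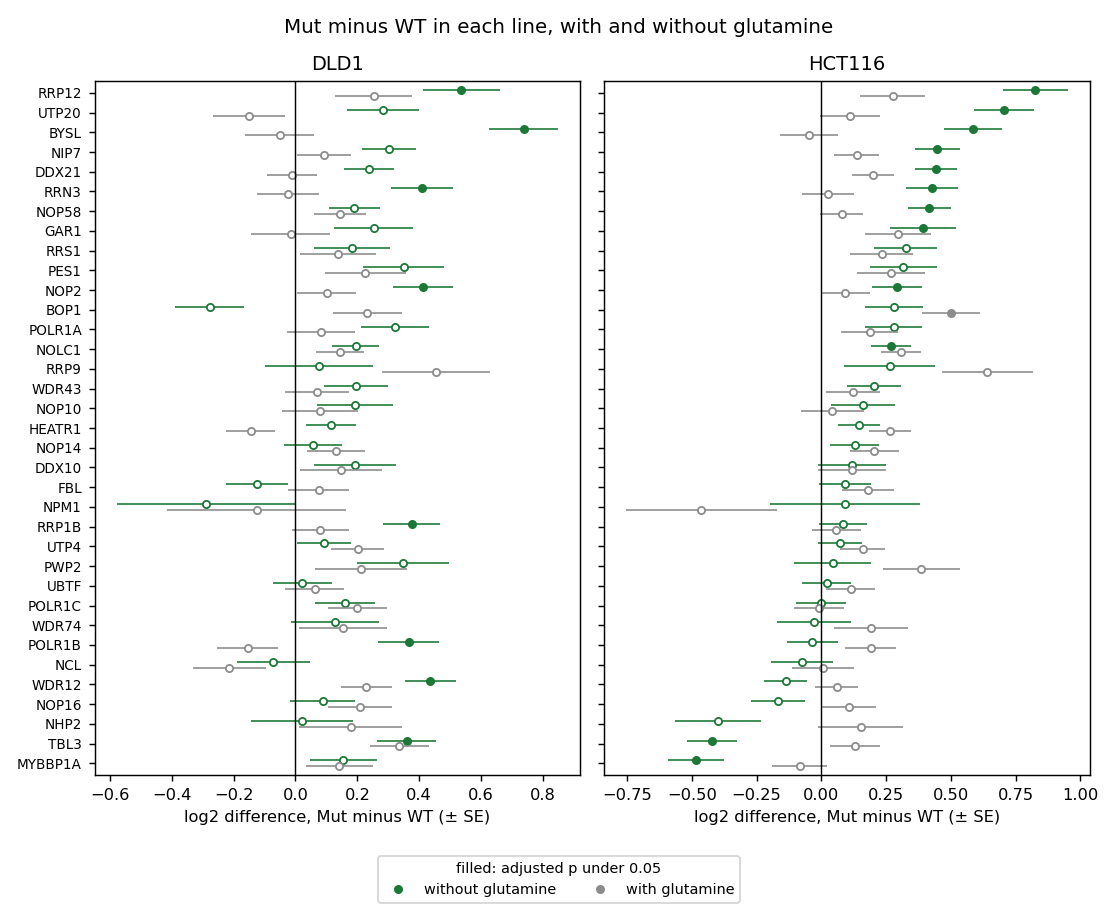
Log2 difference, Mut minus WT (horizontal axis, ± SE), of the 35 genes in DLD1 (left) and HCT116 cells (right), without glutamine (green) and with it (grey); filled points are called. Green points lie furthest right for RRP12, UTP20 and BYSL in HCT116 cells and for BYSL in DLD1 cells. In HCT116 cells 9 green points lie left of 0, and the called ones among them belong to TBL3 and MYBBP1A.

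Whether withdrawal acted differently in Mut and WT cells was tested as an interaction. In DLD1 cells 0 of 35 genes were called (0.823% of tested genes were) and 8 had an unadjusted p under 0.05. The largest value there was BYSL, 0.79 ± 0.16, with an adjusted p of 0.0508 by limma. In HCT116 cells 2 genes had a higher and 1 a lower change in Mut than in WT cells, against 4.75% and 4.74% of tested genes. They were BYSL (0.63 ± 0.16), UTP20 (0.60 ± 0.16) and TBL3 (-0.55 ± 0.14), with adjusted p-values of 0.0325, 0.0474 and 0.0299. They were lost with any of 6, 15 and 7 of the 16 arrays left out, and all 3 with each line fitted separately or with no filter on dim genes. Over its 16 arrays BYSL was highest in DLD1 Mut cells without glutamine, at log2 intensities of 8.16 and 8.15.

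With glutamine, 14 of the 35 genes were lower and 1 higher in DLD1 than in HCT116 cells, against 22.5% and 24.5% of tested genes. RRN3 differed most: it had 153 and 161 in DLD1 Mut and 164 and 155 in DLD1 WT cells, against 351 and 396 in HCT116 Mut and 365 and 368 in HCT116 WT cells (-1.23 ± 0.07, adjusted p = 1.33e-07 by limma). BOP1 (-0.67 ± 0.08), WDR74 (-0.63 ± 0.10), RRP9 (-0.56 ± 0.12) and NHP2 (-0.54 ± 0.12) followed. WDR74 had 42.2 and 42.6 in DLD1 Mut and 39.1 and 37.1 in DLD1 WT cells, against 69.6 and 63.1 in HCT116 Mut and 60.2 and 55.9 in HCT116 WT cells. UTP20 was the 1 gene higher in DLD1 cells (0.28 ± 0.08), a call lost without any of 3 arrays (adjusted p at most 0.0613, limma). In all, 11 of the 15 calls held whichever array was left out, and 9 calls remained at an adjusted p under 0.01.

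MYC, a known activator of these genes, rose in 1 derivative and fell in both DLD1 derivatives. Its intensities were 1577 and 1453 in HCT116 Mut cells without glutamine, against 943 and 1042 with it, a rise of 0.61 ± 0.09 (adjusted p = 0.000395, limma), in cells where 20 of the 35 genes fell. In DLD1 WT cells MYC had 366 and 391 without glutamine, against 535 and 530 with it (-0.49 ± 0.09). In DLD1 Mut cells it had 303 and 290 without glutamine, against 359 and 384 with it (-0.32 ± 0.09), a call lost with either of 2 arrays left out (adjusted p at most 0.102). In HCT116 WT cells it had 891 and 885 without glutamine, against 990 and 975 with it, which did not pass the test. Between genotypes, MYC was lower in Mut than in WT DLD1 cells with glutamine (-0.52 ± 0.09, adjusted p = 0.00593 by limma), a call lost without replicate 1 of the Mut cells (adjusted p = 0.0572). It was lower there without glutamine too (-0.35 ± 0.09, adjusted p = 0.0302, limma), a call lost with any of 4 arrays left out. In HCT116 cells without glutamine MYC was higher in Mut than in WT cells (0.77 ± 0.09, adjusted p = 0.00017, limma). With glutamine it was lower in DLD1 than in HCT116 cells (-1.15 ± 0.06, adjusted p = 8.1e-08, limma). These are levels of MYC RNA, not of the protein, which is known to be controlled separately. Whether MYC had a part in the changes of these genes was not tested.

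Genes of the same and neighbouring pathways that are not on the list moved in both directions on average withdrawal, where 23.5% of all tested genes fell and 24.3% rose. Of 88 other ribosome biogenesis factors 51 fell and 13 rose, with a median log2 change of -0.18. NOP9, which binds the 40S precursor, fell by 1.03 ± 0.05, MRTO4, a placeholder on the 60S subunit, by 0.71 ± 0.04, and the helicase DDX54 by 0.71 ± 0.04. SBDS and ZNF622, which act in the last cytoplasmic steps of 60S maturation, and NOP53 rose, by 0.81 ± 0.04, 0.73 ± 0.05 and 0.29 ± 0.04. SBDS rose in all 4 derivatives, from 0.49 to 1.07, whereas ZNF622 rose in 3 and had a change of -0.01 ± 0.10 in HCT116 WT cells. NOP53 rose in DLD1 WT and HCT116 WT cells and was not called in either Mut derivative. SBDS has a near-identical pseudogene copy, so its values are uncertain.

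Of 10 other RNA polymerase I factors 6 fell and 1 rose, with a median of -0.19. TCOF1 (treacle), which links polymerase I to ribosomal DNA, fell by 0.95 ± 0.06, POLR1G by 0.85 ± 0.06 and POLR1E by 0.47 ± 0.05, the last pair being polymerase subunits, though POLR1E was not called in HCT116 WT cells (-0.27 ± 0.11). POLR1D, a subunit that polymerases I and III share, rose by 0.45 ± 0.05. TCOF1 and POLR1G fell in all 4 derivatives.

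Of 20 RNA polymerase III genes, which make 5S ribosomal RNA and transfer RNA, 10 fell and 7 rose. POLR3K and POLR3G fell by 1.06 ± 0.06 and 1.02 ± 0.07, and BRF2, an initiation factor, and POLR3D rose by 0.76 ± 0.05 and 0.62 ± 0.05. In HCT116 WT cells POLR3G, BRF2 and POLR3D were not called, with changes of -0.39 ± 0.13, 0.10 ± 0.10 and 0.07 ± 0.10, whereas BRF2 rose by 1.42 and 1.06 in DLD1 Mut and DLD1 WT cells. Of 13 genes of the nuclear exosome, which trims ribosomal RNA precursors, 7 fell and 4 rose, among them EXOSC4 with a fall of 0.85 ± 0.08 and EXOSC1 with a rise of 0.32 ± 0.05, which was not called in HCT116 WT cells (0.05 ± 0.09). Of 48 cytosolic ribosomal protein genes that had a probe set of their own, out of 80 listed, 18 fell and 5 rose, with a median of -0.10. RPLP1 and RPS26 fell by 1.41 ± 0.13 and 1.25 ± 0.09 and RPL37 rose by 0.63 ± 0.05. The average of RPL37 hides opposite called directions: it fell in DLD1 Mut cells (-0.31 ± 0.10, adjusted p = 0.0425 by limma) and rose by 0.46 in DLD1 WT, 1.15 in HCT116 Mut and 1.22 in HCT116 WT cells. The fall in DLD1 Mut cells was lost with any of 11 arrays left out, and the rise in DLD1 WT cells with either of 2. Ribosomal protein genes have many near-identical copies, and their values are uncertain.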

How the data were processed

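The values the authors deposited are linear intensities of 53617 probe sets from 16 Affymetrix whole-transcript arrays. Per the labels' protocols, biotin-labelled targets were made from total RNA with the whole-transcript protocol. Their normalization is not given in the sources used here. They were put on the log2 scale as deposited, with no offset and no further scaling. Symbols came from the platform's probe table, 90 of them updated by Entrez identifier with a RefSeq gene table. Probe sets with 1 symbol (23871) were used, and the brightest for the 632 genes with several. The brighter 70% of genes by mean log2 intensity (lowest mean 1.65) entered limma 3.58.1 (R 4.3.3), in 1 fit of 8 group means with 8 residual and 2.49 prior degrees of freedom. The 13 contrasts were adjusted over 15676 genes each. The number of arrays limits the precision. The fit was also run on simulated data with seeded changes and independent noise. Those data held no batch or culture effect, and the outcome is not given here.

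Replicate numbers did not pair the arrays: deviations of same-numbered arrays from their group means correlated between -0.04 and 0.03. The genes, lists, contrasts and alternatives were chosen with earlier results of these data known. Arrays are printed for some of the RNA polymerase I and snoRNP genes. They are also printed for many, not all, of the 3 largest called changes in each direction of each contrast. Further genes of the list were added where the text turns on them. MYC was always named. From each other list, genes were taken from the 3 called genes with the smallest adjusted p in each direction on average withdrawal. Of these, POLR3E, EXOSC2, MTREX and RPL29, which fell, are not described above. POLR3C, DIS3, EXOSC8, RPL36AL and RPL10A, which rose, are not described either. The genes of each other list were tested in the same fit.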

Additional observations from a re-analysis of the deposited data

Results flagged for a closer look

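These are the results where the same contrast differed between the lines or between the genotypes by a test of the difference itself. The change on glutamine withdrawal, DLD1 minus HCT116 cells, was -0.83 for NOP2, -0.56 for NOP16, -0.36 for MYBBP1A, 0.25 for NOLC1, 0.28 for NOP58 and 0.45 for WDR12 on the log2 scale, and -0.64 for MYC. NOP2, NOP16 and WDR12 kept their calls with every array left out. The interaction of genotype and glutamine in HCT116 cells was 0.63 for BYSL, 0.60 for UTP20, -0.55 for TBL3 and 0.76 for MYC. The calls of BYSL, UTP20 and TBL3 were lost with 6, 15 and 7 of the 16 arrays left out, each in turn.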

How the results depend on the processing

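For withdrawal averaged over the derivatives, 27 calls became 26 to 28 with 1 array left out. Leaving out each array in turn gave 14 to 20 calls for withdrawal in DLD1 Mut, 15 to 19 in DLD1 WT, 17 to 23 in HCT116 Mut and 10 to 18 in HCT116 WT cells. It gave 3 to 6 for the difference between the lines, 0 to 0 and 0 to 1 for Mut against WT with glutamine in DLD1 and HCT116 cells, 1 to 8 and 8 to 12 without it, 0 to 1 and 0 to 3 for the interactions, and 13 to 15 for DLD1 against HCT116 cells. With no filter on dim genes the line difference had 3 calls, Mut against WT without glutamine in DLD1 cells 5, and BOP1 and the HCT116 interaction 0. Above the median level there were 12 for the line difference, 1 and 2 for Mut against WT with glutamine, and 1 for the DLD1 interaction. With 16 added to each intensity these counts were 16, 2, 4 and 2, and 7 for the HCT116 interaction. With a trended, robust spread they were 14, 2, 5, 1 and 8, and 13 for Mut against WT without glutamine in DLD1 cells. Shifting the arrays to the same median, or averaging probe sets, left 0 calls with glutamine in HCT116 cells. With each line fitted separately HCT116 WT withdrawal had 13 calls, DLD1 without glutamine 2, and HCT116 with glutamine and its interaction 0. The replicate block within each line gave 3 calls for the line difference, 0 for Mut against WT with glutamine in HCT116 cells, 1 for the HCT116 interaction and 9 for DLD1 against HCT116 cells, and moved no other count by over 1.5 times. With adjusted p under 0.01 the counts were 12 for HCT116 WT withdrawal, 3 for the line difference, 0 for HCT116 with glutamine, 2 for DLD1 without it, 0 for the HCT116 interaction and 9 for DLD1 against HCT116 cells. The other 92 alternative counts stayed within 1.5 times. MYC in HCT116 Mut against WT cells with glutamine, 0.01 and not called, had values from -0.0598, without replicate 2 of the Mut cells, to 0.0849 with 1 array left out. Fewer calls at the stricter threshold follow from its construction, and the cause of the other changes was not tested. Dim probe sets such as that of NPM1 limit the precision.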

Other observations

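Probe sets that NOP56, DKC1 and TAF1D share with small nucleolar RNAs entered no comparison, and their values are a description of mixed signals. The probe set of NOP56, a core box C/D protein, and of SNORD57, SNORD86, SNORD110 and MIR1292 was lower without than with glutamine by 2.15 in DLD1 Mut, 2.04 in DLD1 WT, 0.97 in HCT116 Mut and 0.72 in HCT116 WT cells on the log2 scale. In DLD1 Mut cells its log2 intensities were 6.77 and 7.03 without glutamine, against 9.08 and 9.02 with it. The probe set of DKC1, the pseudouridine synthase of box H/ACA particles, and of SNORA56 differed by -0.37 to -0.16. The 7 probe sets of TAF1D, a factor of polymerase I initiation, disagreed with each other, with differences from -1.40 to 0.77.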
